A study of Mus musculus with 6 samples.

Results

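The Rab genes encode small GTPases of the Ras superfamily that give membranes of the secretory and endocytic routes their identity. All protein-coding mouse genes with the symbol Rab, a number and at most 1 further letter were taken. Left out were 12 similar symbols of effectors (such as Rab11fip5), other proteins (such as the exchange factor Rab3il1) and noncoding genes. Of 59 such genes in the annotation, 57 had a probe and a value on all arrays, among 20263 genes with values in all; Rab36 and Rab44 were not matched to a probe. Of the 57, 49 reached a signal well above background in a whole group (both of its arrays) and entered the tests, with 13247 genes tested in all. The other 8 (Rab9b, Rab13, Rab26, Rab27b, Rab30, Rab38, Rab39b and Rab40b) did not reach that level in any group and were not tested. That filter keeps a gene through the group where it is bright, so counts below are over the 49 that passed and not over the family.

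The cells were Tot2 cells, a line of myeloid progenitors from a mouse lacking Irf8, so every group shared the Irf8 deficiency. Control cells received the empty MSCV retroviral vector with puromycin resistance, and the other 2 groups received the same vector carrying FLAG-tagged IRF8 or FLAG-tagged KLF4. IRF8 and KLF4 are transcription factors of the monocyte and macrophage lineage. The medium of all groups held granulocyte-macrophage colony stimulating factor at 5 ng/ml, puromycin selection (2 µg/ml) began at 48 hr, and cells were harvested at day 4 for total RNA. The comparisons ask how expression differs once either factor is introduced. Each group had 2 arrays from 2 independent experiments, so p-values measure the spread between 2 experiments on 1 cell line.

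A Rab protein cycles between a GDP-bound form held in the cytosol by GDP dissociation inhibitors and a GTP-bound form on its membrane. Exchange factors switch it on, GTPase-activating proteins switch it off, and effectors read the active form to tether, move or fuse vesicles. In macrophages and dendritic cells these routes carry phagosome maturation, receptor recycling and antigen handling, and in granulocytes they carry granule release.

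Signal is given as log2 of the processed intensity minus the log2 75th percentile of the same array, so 0 is the level of the 75th percentile, and a change is a difference of 2 group means on that scale. The arrays had a 75th percentile intensity of 436 to 974, with 47.1% to 56.8% of probes above background and 0 saturated spots. The dimmest signals still well above background were -5.42 to -4.32. Over the 49 Rab genes, arrays of 1 group correlated at r = 0.996 to 0.998, a description across genes, which are not independent replicates.

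The 2 transferred genes were read first. Irf8 signal was 0.49 and 0.64 in control, 2.94 and 3.05 in cells given IRF8, and 2.18 and 2.16 in cells given KLF4. Klf4 signal was -1.62 and -1.28 in control, 4.46 and 4.61 in cells given IRF8, and -1.56 and -1.33 in cells given KLF4. The Klf4 values of the arrays labelled KLF4 lay within the range of the control arrays (log2 change 0.00, SE 0.158; adjusted p = 0.987, limma with Benjamini-Hochberg adjustment). Whether the Klf4 probe lies in the part of the transcript that the vector carries has no answer in the sources used here, so it checks the label only if it does. Irf8 was above control in both other groups, by 2.43 (adjusted p = 5.37e-05) and 1.60 (adjusted p = 0.000606). For that reason the names IRF8-labelled and KLF4-labelled are used, and every direction below rests on the labels.

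Markers of other cell states moved with the groups, and their part in the Rab results was not tested. The summed signal of 9 monocyte and macrophage markers, in multiples of the 75th percentile, was 17.8 to 17.9 in control, 821 to 927 in IRF8-labelled and 171 to 179 in KLF4-labelled cells. The summed signal of 10 neutrophil markers was 693 to 840, 25.6 to 25.9 and 393 to 530 in the same order. That of 8 progenitor markers was 1635 to 2228, 599.8 to 748 and 1181 to 1840. Such sums weigh bright genes most, and single members differed. In IRF8-labelled cells 1 progenitor marker rose (Cd34, at least 4.37-fold) and 4 fell, against 25.8% and 35.7% of all genes. In KLF4-labelled cells 1 neutrophil marker rose (Mmp9, by 1.95 on the log2 scale) and 5 fell, against 10.4% and 8.85%. The other 3 lists, of 8 markers each, had low sums that also moved with the groups. Lymphocyte sums were 5.06 to 5.81, 2.32 to 3.04 and 3.73 to 4.19 in that order, and fibroblast sums were 3.78 to 4.56, 11.5 to 13.3 and 8.25 to 8.995, without overlap in either list. Basophil and mast cell sums were lowest in IRF8-labelled cells (2.65 to 3.17), with 5.21 to 5.30 in control and 5.17 to 6.34 in KLF4-labelled cells. Members of these lists also differed in IRF8-labelled against control cells. Tpsb2 rose (log2 change 1.68) while Mcpt8 and Hdc fell (-4.33 and -3.28). Acta2 and Col1a2 rose (1.64 and 0.71) while Thy1 fell (-0.77). Of the defining markers, Kit, Mmp8, Fcer1a, Ms4a2, Gata2, Ms4a1, Pdgfrb, Lum and Dcn were not well above background on any of the 6 arrays, and Msr1, Ctss and Mertk on none of the control arrays. In these bulk samples, fewer cells of a type and less RNA per cell cannot be told apart.

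The promoters of Rab19, Rab15 and Rab43 are shown because these genes had the largest rises in IRF8-labelled cells among Rab genes with a signal above background on a control array. Rab7b, next by size, has no entry in the table used. The promoter of Rab20 is shown because Rab20 was higher in KLF4-labelled than in IRF8-labelled cells, and it was chosen after its values were seen. The sequences are RefSeq, GRCm38.p6, 5′ to 3′ along the gene from 250 bases before to 50 bases after the transcript start, 300 bases each. Capitals mark matches on either strand to an interferon-stimulated response element (GAAA, any 2 bases, GAAA), an Ets-IRF composite element (GGAA, any 2 bases, GAAA), a KLF element (GGGNGTGG), a PU.1 core (GAGGAAG) or an E-box read by TFEB (TCACGTGA).
Rab19, chr6:39381103-39381402, plus strand: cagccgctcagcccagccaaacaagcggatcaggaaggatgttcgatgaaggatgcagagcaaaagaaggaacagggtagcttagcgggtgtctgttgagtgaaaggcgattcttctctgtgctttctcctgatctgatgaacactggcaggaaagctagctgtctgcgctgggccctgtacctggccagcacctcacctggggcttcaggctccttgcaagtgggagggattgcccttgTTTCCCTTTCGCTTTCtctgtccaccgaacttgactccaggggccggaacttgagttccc
Rab15, first of 4 listed starts, chr12:76822475-76822774, minus strand: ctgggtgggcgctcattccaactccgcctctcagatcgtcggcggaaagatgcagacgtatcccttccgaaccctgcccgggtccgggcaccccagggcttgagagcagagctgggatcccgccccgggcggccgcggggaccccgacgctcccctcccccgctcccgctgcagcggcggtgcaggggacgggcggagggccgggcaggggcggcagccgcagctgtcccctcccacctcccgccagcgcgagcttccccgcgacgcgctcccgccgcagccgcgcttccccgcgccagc
Rab43, first of 4 listed starts, chr6:87812115-87812414, minus strand: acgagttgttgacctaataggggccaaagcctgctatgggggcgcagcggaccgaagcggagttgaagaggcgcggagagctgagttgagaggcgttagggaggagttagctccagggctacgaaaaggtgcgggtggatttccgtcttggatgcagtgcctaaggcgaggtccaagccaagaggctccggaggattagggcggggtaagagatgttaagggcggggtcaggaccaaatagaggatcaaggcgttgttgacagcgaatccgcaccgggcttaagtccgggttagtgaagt
Rab20, chr8:11478591-11478890, minus strand: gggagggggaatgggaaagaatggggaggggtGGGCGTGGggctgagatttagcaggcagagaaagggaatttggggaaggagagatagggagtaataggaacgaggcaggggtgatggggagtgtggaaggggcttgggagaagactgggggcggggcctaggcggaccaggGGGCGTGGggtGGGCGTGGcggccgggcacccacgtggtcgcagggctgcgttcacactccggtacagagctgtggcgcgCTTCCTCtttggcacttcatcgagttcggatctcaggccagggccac

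The Rab19 promoter held 2 overlapping matches to the interferon-stimulated response element on the strand opposite to the gene, with their first bases at -10 and -4 from the start. It was the 1 Rab promoter with this motif among 60 promoters of 48 Rab genes, 1.67%, against 3.44% of all 32851 promoters in the table. None of the 5 motifs was found at any of the 4 starts of Rab15 or of Rab43. The Rab20 promoter held 3 matches to GGGNGTGG, at -218, -77 and -66, and 1 match to GAGGAAG on the opposite strand at 4. GGGNGTGG was found in 12 of the 60 Rab promoters (20%) and in 17.6% of all promoters, and GAGGAAG in 8 (13.3%) and in 13.6%. The Ets-IRF element was found in 1 Rab promoter (Rab11b, 1.67%) and in 2.72% of all promoters, and TCACGTGA in 3 (Rab5a, Rab21 and Rab24, 5%) and in 0.974%. Matches to the interferon-stimulated response element and the Ets-IRF element can overlap. A match is a description of letters in this window and was not tested against the expression values.

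Rab genes were mostly higher in IRF8-labelled than in control cells. Of the 49 tested, 26 rose and 7 fell, where 61.5% of all tested genes passed the threshold, 25.8% higher and 35.7% lower. The median log2 change was 0.50 over the Rab genes and -0.13 over all genes tested. At least 2-fold changes were found in 11 Rab genes that rose and 4 that fell, against 15.0% and 14.9% of all genes. Among Rab genes with a signal above background on a control array, the largest rises were those of Rab19, Rab15, Rab43 and Rab7b, and the largest fall was that of Rab27a. Rab39, which was not above background in control, was at least 4.08-fold higher. Of the 33 calls, 24 were kept in each of the 6 fits that left out 1 array, and the count of calls in those fits was 25 to 32. With the experiment as a block 28 rose and 9 fell, where Rab1b and Rab33a joined those that rose and Rab21 and Rab34 those that fell. With spike-in scaling 10 rose and 6 fell, and with median scaling 21 and 7. Rab39 is among the genes that rose and passed the filter through the IRF8-labelled arrays alone. Of the 45 Rab genes above background on all 6 arrays, 23 rose and 6 fell. Over the 11665 genes of that stricter filter, 2819 rose and 4661 fell. The plot of changes by gene shows Rab genes that rose in every block of roles.

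**Figure D1:**
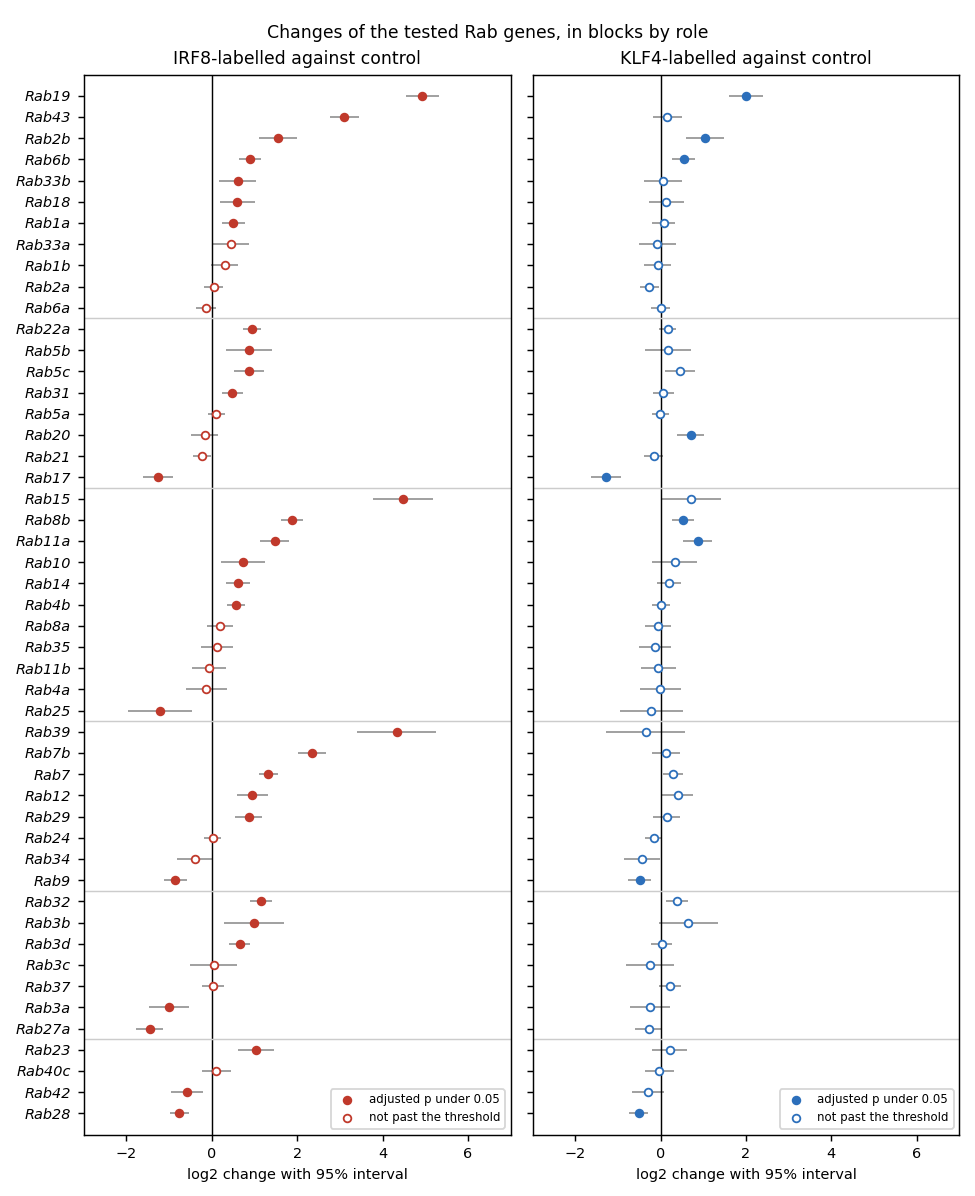
Log2 change with its 95% interval (x axis, log2 units) for each of the 49 tested Rab genes (y axis, in blocks by role), with IRF8-labelled against control on the left and KLF4-labelled against control on the right. Filled points passed an adjusted p of 0.05 and open points did not; 33 points are filled on the left and 9 on the right, and Rab39 is drawn at its fitted change although its control and KLF4-labelled arrays were not above background.

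In KLF4-labelled against control cells, 6 Rab genes rose (Rab19, Rab2b, Rab11a, Rab20, Rab6b and Rab8b) and 3 fell (Rab17, Rab28 and Rab9). Over all genes 19.2% passed the threshold, 10.4% higher and 8.85% lower, and the medians were 0.06 for the Rab genes and -0.16 for all genes. At least 2-fold changes were found in 2 Rab genes that rose (Rab19 and Rab2b) and 1 that fell (Rab17), against 6.42% and 0.785% of all genes. With the experiment as a block, 12 Rab genes rose and 7 fell: Rab7, Rab10, Rab12, Rab14, Rab23 and Rab32 joined those that rose, and Rab2a, Rab3a, Rab34 and Rab42 those that fell. The counts were, with median scaling 5 and 1, and with spike-in scaling 1 and 1. Only Rab19 and Rab17 kept their calls in each of the 6 fits without 1 array. The count of Rab calls was 2 without control replicate 1, 3 without either KLF4-labelled array, 5 without either IRF8-labelled array and 6 without control replicate 2.

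In IRF8-labelled against KLF4-labelled cells, 22 Rab genes were higher and 5 lower (Rab20, Rab25, Rab27a, Rab3a and Rab9), where 50.5% of all genes passed the threshold, 23.7% higher and 26.8% lower. The medians were 0.40 for the Rab genes and -0.01 for all genes. Blocking on the experiment, 31 were higher and 7 lower, where Rab1b, Rab2b, Rab3c, Rab8a, Rab10, Rab18, Rab24, Rab33a and Rab35 joined the higher genes and Rab28 and Rab42 the lower ones. With median scaling 10 were higher and 7 lower, and with spike-in scaling 6 and 1. Rab39, kept by the filter through the IRF8-labelled arrays alone, is among the 22. Of the 45 Rab genes above background on all 6 arrays, 25 were higher and 4 lower, against 2739 and 3421 of 11665 genes. At least 2-fold differences were found in 7 higher and 2 lower Rab genes, against 10.1% and 9.36% of all genes. Of these 27 calls, 14 were kept in each fit without 1 array. The count was 17 without IRF8-labelled replicate 1, 16 without KLF4-labelled replicate 1 and 17 without KLF4-labelled replicate 2, and 18 to 26 without 1 of the other arrays. The comparisons with control share the control arrays, and this one shares its arrays with both.

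**Figure D2:**
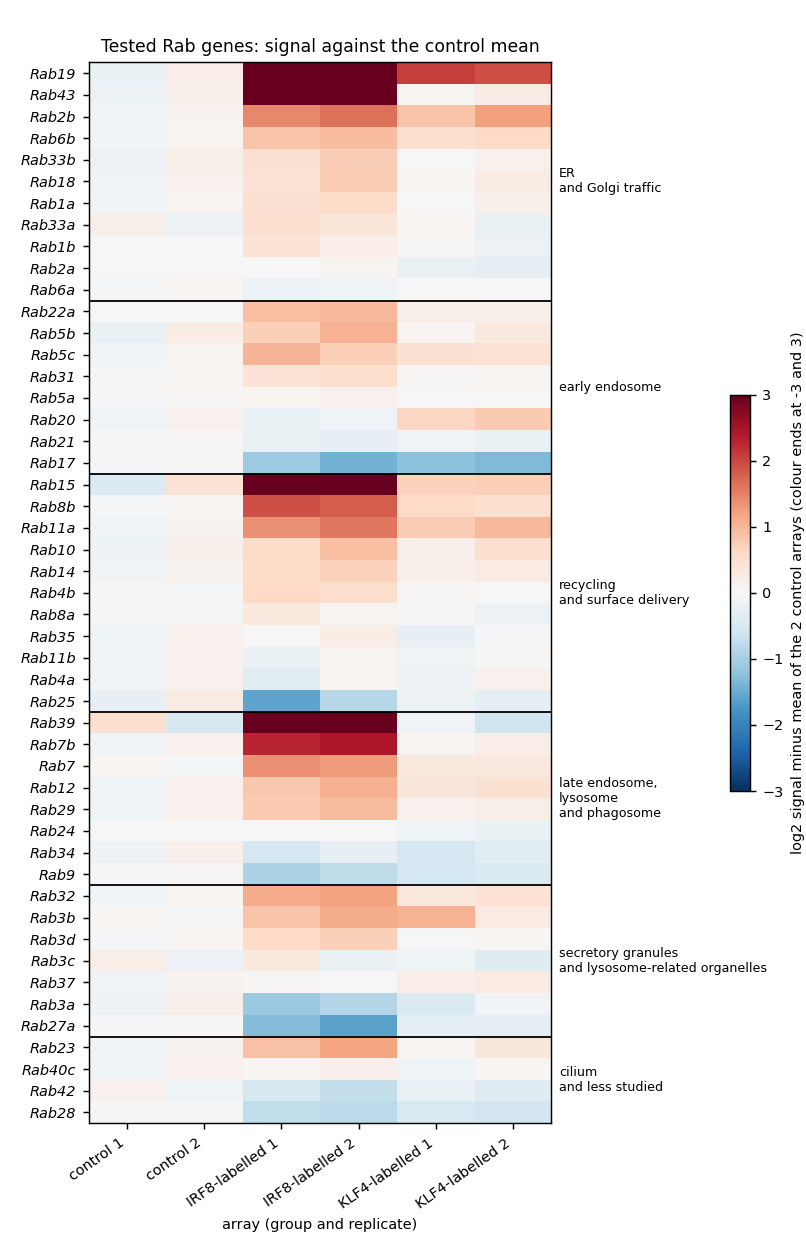
Signal of the 49 tested Rab genes (y axis, in blocks by role) on each of the 6 arrays (x axis), as log2 signal minus the mean of the 2 control arrays, in colours that end at -3 and 3. The IRF8-labelled arrays are darkest red for Rab19, Rab43, Rab15 and Rab39, all past the end of the scale, while of these 4 genes Rab19 alone is strongly red on the KLF4-labelled arrays. Rab39 is drawn against control arrays that were not above background, and its lower bound of 2.03 log2 units lies within the scale.

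Among the Rab genes of the endoplasmic reticulum and Golgi, 7 of 11 tested rose in IRF8-labelled cells and 0 fell by limma (0 also at an unadjusted p under 0.05), against 25.8% and 35.7% of all genes, with a median log2 change of 0.60. Rab19, a little-studied Rab of the Golgi region (probe A_51_P414126), had signals of -4.77 and -4.39 in control, 0.38 and 0.33 in IRF8-labelled and -2.50 and -2.65 in KLF4-labelled cells. The 3 groups did not overlap, with IRF8-labelled cells highest and control lowest, and the probe was above background on 1 of the 2 control arrays. Its log2 change was 4.93 (SE 0.152; adjusted p = 2.77e-05) in IRF8-labelled cells, a 30.5-fold rise, and 2.00 (SE 0.152; adjusted p = 0.00129) in KLF4-labelled cells, a 4.01-fold rise. The direct difference between the factors was 2.93 (adjusted p = 0.00025). With normexp background correction the KLF4 change was 0.75 and its call was lost (adjusted p = 0.115).

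Rab43, a Golgi Rab known for its part in cross-presentation by dendritic cells, had signals of 3.23 and 3.53 in control, 6.45 and 6.52 in IRF8-labelled and 3.47 and 3.61 in KLF4-labelled cells. The IRF8-labelled arrays stood above all others, and the KLF4-labelled arrays overlapped control. The log2 change was 3.11 (SE 0.132; adjusted p = 6.45e-05) in IRF8-labelled cells, 8.61-fold. In KLF4-labelled cells it was 0.16, with a 95% interval of -0.18 to 0.50 (adjusted p = 0.411). A second probe gave 2.61 and -0.05.

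Rab2b, a relative of the ER-to-Golgi Rab Rab2a, had signals of -0.56 and -0.35 in control, 0.99 and 1.20 in IRF8-labelled and 0.40 and 0.77 in KLF4-labelled cells. Both factor groups were above control without overlap. The log2 changes were 1.55 (SE 0.170; adjusted p = 0.00107) and 1.04 (SE 0.170; adjusted p = 0.0179). The direct difference of 0.51 did not pass the threshold (adjusted p = 0.0579, and 0.00527 with the experiment as a block). The KLF4 call was lost without control replicate 1 (0.93, adjusted p = 0.0772) and without KLF4-labelled replicate 2 (0.85, adjusted p = 0.0809). The direct difference passed without KLF4-labelled replicate 2 (0.70, adjusted p = 0.0445).

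Rab1a, the main Rab of transport from the endoplasmic reticulum to the Golgi, moved little. Its signals were 5.24 and 5.38 in control, 5.76 and 5.86 in IRF8-labelled and 5.31 and 5.45 in KLF4-labelled cells. IRF8-labelled arrays lay above the others by less than 1 log2 unit, with a change of 0.50 (SE 0.105; adjusted p = 0.0103) that was lost without control replicate 1 (0.43, adjusted p = 0.0506) and without IRF8-labelled replicate 2 (0.45, adjusted p = 0.0589). The call was also lost with median scaling (0.44, adjusted p = 0.0706). Of the other Golgi Rabs, Rab6b rose in both factor groups (0.90 and 0.54), with the KLF4 call lost in each fit without 1 array. Rab18, an ER and lipid droplet Rab, rose in IRF8-labelled cells (0.60), a call lost without control replicate 1 and IRF8-labelled replicate 2. Rab33b, a Rab of the Golgi and autophagy, had a change of 0.60 on its brightest probe and -0.21 on its second probe, so its probes disagreed, and its call was lost in 4 of the 6 fits without 1 array. Rab1b, Rab2a, Rab6a and Rab33a had changes of 0.30, 0.04, -0.14 and 0.44 in IRF8-labelled against control cells, none past the threshold. Rab1b and Rab33a passed it with the experiment as a block (adjusted p = 0.0213 and 0.00834).

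**Figure D3:**
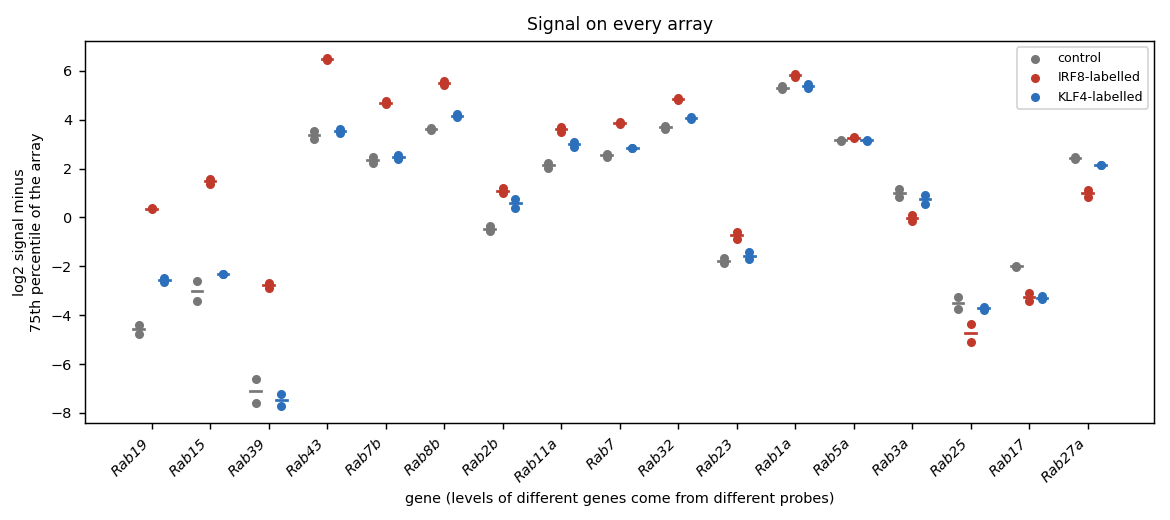
Signal on every array (y axis, log2 units relative to the array's 75th percentile) for the 17 Rab genes chosen by size of change or as main members of a route (x axis), points for arrays and bars for group means. IRF8-labelled points stand highest from Rab19 to Rab1a and lowest for Rab3a, Rab25 and Rab27a, and the groups almost coincide for Rab5a; heights of different genes come from different probes and are not comparable.

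Among early endosome Rabs, 4 of 8 rose in IRF8-labelled cells (Rab22a, Rab5b, Rab5c and Rab31) and 1 fell (Rab17), against 25.8% and 35.7% of all genes. Rab5a, which drives homotypic fusion of early endosomes, had signals of 3.14 and 3.19 in control, 3.25 and 3.29 in IRF8-labelled and 3.14 and 3.17 in KLF4-labelled cells. All 6 values lay close together. Its change in IRF8-labelled cells was 0.11, with a 95% interval of -0.10 to 0.31 (adjusted p = 0.294). Its relatives Rab5b and Rab5c rose by 0.88 (adjusted p = 0.0172) and 0.87 (adjusted p = 0.0037), and all 4 probes of Rab5b were higher, by 0.62 to 1.10. The Rab5b call was lost without control replicate 1 and without IRF8-labelled replicate 2 (0.64 and adjusted p = 0.0726 at the extremes). Rab22a, a Rab of endosomal sorting, rose by 0.94 (SE 0.0806; adjusted p = 0.000477), with a direct difference from KLF4-labelled cells of 0.78 (adjusted p = 0.0015). Rab31, a Rab of the route from the Golgi to endosomes, rose by 0.47, a call lost without IRF8-labelled replicate 2 (adjusted p = 0.0561). Rab21, an endosomal Rab of integrin traffic, was -0.23 (adjusted p = 0.0645, and 0.0259 with the experiment as a block).

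Rab17, a Rab known from polarized epithelia, had signals of -2.03 and -1.98 in control, -3.10 and -3.43 in IRF8-labelled and -3.23 and -3.34 in KLF4-labelled cells. Both factor groups lay below control and overlapped each other. The falls were nearly equal, -1.26 (SE 0.135; adjusted p = 0.00101) and -1.28 (SE 0.135; adjusted p = 0.00423), and a second probe gave -0.79 and -0.94. The direct difference was 0.02, with a 95% interval of -0.33 to 0.37. With normexp the KLF4 call was lost (-0.89, adjusted p = 0.0663).

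Rab20, a Rab of phagosome maturation, had signals of -0.56 and -0.32 in control, -0.65 and -0.56 in IRF8-labelled and 0.18 and 0.35 in KLF4-labelled cells. It was the 1 Rab gene that rose in KLF4-labelled cells (0.71, SE 0.122; adjusted p = 0.0212) with a fitted change below 0 in IRF8-labelled cells (-0.17; adjusted p = 0.293). The KLF4 call was lost without control replicate 1 and without either KLF4-labelled array. Over the 6 fits without 1 array, the KLF4 change was 0.59 to 0.83. KLF4-labelled arrays stood above the other 4, which overlapped. The direct difference of -0.87 (adjusted p = 0.00372) was called in each fit without 1 array. Its promoter, shown above after these values were seen, held 3 KLF element matches. That element was found in 20% of Rab promoters and 17.6% of all promoters. Of the other Rab genes called in KLF4-labelled cells, Rab9, which fell, also held a match. No match was found for Rab19, Rab2b, Rab11a, Rab6b and Rab8b, which rose, or for Rab17 and Rab28, which fell. Promoters were available for 48 Rab genes, so a missing match can also be a missing promoter. Any part of the element in these values was not tested.

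Among Rabs of recycling and surface delivery, 6 of 11 rose and 1 fell in IRF8-labelled cells, against 25.8% and 35.7% of all genes. Rab15, a Rab of the recycling endosome, had signals of -3.42 and -2.61 in control, 1.38 and 1.57 in IRF8-labelled and -2.32 and -2.30 in KLF4-labelled cells. IRF8-labelled arrays stood far above the rest, and the control arrays lay further apart than for any tested Rab gene except Rab39. The Rab15 change was 4.48 (SE 0.274; adjusted p = 0.000174), 22.4-fold, and a second probe gave 3.19. The KLF4 change of 0.70 did not pass the threshold (adjusted p = 0.133), but was 1.11 without control replicate 2 (adjusted p = 0.0144). The direct difference was 3.78 (adjusted p = 0.000553).

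Rab8b, a Rab of transport from the Golgi to the plasma membrane, had signals of 3.57 and 3.67 in control, 5.56 and 5.44 in IRF8-labelled and 4.22 and 4.09 in KLF4-labelled cells. The groups were separate, in the order control, KLF4-labelled, IRF8-labelled. Its changes were 1.88 (SE 0.0998; adjusted p = 0.00012) and 0.53 (SE 0.0998; adjusted p = 0.0261), with 2.03 and 0.67 on a second probe. The KLF4 call was lost in each of the 6 fits without 1 array (0.47 to 0.60, adjusted p 0.0576 to 0.126), and the direct difference of 1.35 (adjusted p = 0.000594) was kept in all of them.

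Rab11a, the central Rab of the recycling endosome, had signals of 2.04 and 2.23 in control, 3.50 and 3.71 in IRF8-labelled and 2.90 and 3.10 in KLF4-labelled cells. The groups were again separate in the same order. The changes were 1.47 (SE 0.135; adjusted p = 0.000594) and 0.87 (SE 0.135; adjusted p = 0.0153). The KLF4 call was lost without control replicate 1 (0.77, adjusted p = 0.0694), KLF4-labelled replicate 1 (0.97, adjusted p = 0.0561) and KLF4-labelled replicate 2 (0.77, adjusted p = 0.0944). The direct difference of 0.60 (adjusted p = 0.017) was lost without IRF8-labelled replicate 2 (0.50, adjusted p = 0.0793) and KLF4-labelled replicate 1 (0.50, adjusted p = 0.0833).

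Rab25, an epithelial relative of Rab11, was dim, at -3.76 and -3.26 in control, -5.09 and -4.37 in IRF8-labelled and -3.65 and -3.80 in KLF4-labelled cells. IRF8-labelled arrays were lowest, at 1 of 2 above background, and KLF4-labelled arrays overlapped control. Its fall of -1.22 (SE 0.290; adjusted p = 0.0162) was lost without control replicate 2 (-0.97, adjusted p = 0.064) and with normexp (-0.46, adjusted p = 0.144). The direct difference of -1.005 (adjusted p = 0.0377) was lost without IRF8-labelled replicate 1 (-0.65), KLF4-labelled replicate 1 (-0.93) and KLF4-labelled replicate 2 (-1.08). Of the other recycling Rabs, Rab14 and Rab4b rose in IRF8-labelled cells by 0.62 and 0.57. Rab10, which carries Toll-like receptor 4 to the surface, rose by 0.73 on its brightest probe, a call lost without control replicate 1 and IRF8-labelled replicate 2, and had 0.32 on a second probe (adjusted p = 0.0509 among all probes). Rab4a, Rab8a, Rab11b and Rab35 did not pass the threshold in any comparison, with changes of -0.13 to 0.18 in IRF8-labelled cells. The direct differences of Rab8a and Rab35, 0.25 each, passed it with the experiment as a block (adjusted p = 0.0261 and 0.0131).

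Among Rabs of late endosomes, lysosomes and phagosomes, 5 of 8 rose in IRF8-labelled cells (Rab39, Rab7b, Rab7, Rab12 and Rab29) and 1 fell (Rab9). The shares of all genes were 25.8% and 35.7%, and the median log2 change of these Rabs was 0.91. Rab39 was above background on the IRF8-labelled arrays alone, so the filter kept it only through the group where it was high. In KLF4-labelled cells 0 rose and 1 fell by limma, against 10.4% and 8.85% of all genes, and 2 were higher and 2 lower at an unadjusted p under 0.05. Rab7, which drives fusion of late endosomes with lysosomes, had signals of 2.59 and 2.48 in control, 3.89 and 3.82 in IRF8-labelled and 2.83 and 2.82 in KLF4-labelled cells. IRF8-labelled arrays were clearly highest and KLF4-labelled arrays a little above control. Its changes were 1.32 (SE 0.0874; adjusted p = 0.000216) and 0.29 (adjusted p = 0.0782, and 0.0203 with the experiment as a block), and the direct difference was 1.03 (adjusted p = 0.000838).

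Rab7b, a Rab of the route from endosomes to the Golgi that limits Toll-like receptor signalling, had signals of 2.22 and 2.47 in control, 4.62 and 4.76 in IRF8-labelled and 2.41 and 2.56 in KLF4-labelled cells. KLF4-labelled arrays overlapped control and IRF8-labelled arrays stood apart. The change was 2.35 (SE 0.127; adjusted p = 0.000126), 5.09-fold, against 0.13 in KLF4-labelled cells, with a 95% interval of -0.19 to 0.46. The direct difference was 2.21 (adjusted p = 0.000307).

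Rab39, a Rab of the phagosome, had signals of -6.63 and -7.60 in control, -2.89 and -2.68 in IRF8-labelled and -7.23 and -7.71 in KLF4-labelled cells. The probe was not well above background on any control or KLF4-labelled array and was above it on both IRF8-labelled arrays. Against the lowest signal well above background, IRF8-labelled cells were at least 4.08-fold above control (adjusted p = 0.00043) and at least 5.24-fold above KLF4-labelled cells (adjusted p = 0.000639). Rab39 entered the tests through the IRF8-labelled arrays alone. Each adjusted p belongs to the fitted log2 change (4.33 and 4.68), which includes signals below background, and not to the bound. Between control and KLF4-labelled cells no fold is given.

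Rab12 and Rab29, a partner of the kinase Lrrk2, rose in IRF8-labelled cells by 0.94 and 0.87. Rab9, which returns mannose 6-phosphate receptors to the Golgi, went the other way, at -0.86 (SE 0.104; adjusted p = 0.00152) in IRF8-labelled and -0.49 (adjusted p = 0.0361) in KLF4-labelled cells. All 3 of its probes were lower in both groups, by -0.90 to -0.73 in IRF8-labelled cells. The KLF4 call of Rab9 and its direct difference of -0.37 were lost in each fit without 1 array. Rab24 and Rab34 did not pass the threshold, with 0.02 and -0.39 in IRF8-labelled cells. Rab34 fell in both factor groups with the experiment as a block, by 0.39 (adjusted p = 0.00399) and by 0.43 (adjusted p = 0.0103). The direct difference of Rab24, 0.18, passed the threshold in that blocked fit only (adjusted p = 0.0334, against 0.112 in the main fit).

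Among Rabs of secretory granules and lysosome-related organelles, 3 of 7 rose in IRF8-labelled cells (Rab32, Rab3b and Rab3d) and 2 fell (Rab27a and Rab3a), against 25.8% and 35.7% of all genes. In KLF4-labelled cells 0 passed the threshold by limma, against 19.2% of all genes, and 1 was higher at an unadjusted p under 0.05. Rab27a, which docks lysosome-related organelles and neutrophil azurophil granules for release, had signals of 2.40 and 2.47 in control, 1.13 and 0.84 in IRF8-labelled and 2.15 and 2.16 in KLF4-labelled cells. IRF8-labelled arrays were lowest without overlap, and KLF4-labelled arrays lay slightly under control. The changes were -1.45 (SE 0.123; adjusted p = 0.000455), 2.74-fold lower, and -0.28 (adjusted p = 0.165), with a direct difference of -1.17 (adjusted p = 0.00153). The neutrophil markers were also lowest on the IRF8-labelled arrays, as given above, and their part in this fall was not tested.

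Rab32, a Rab of the biogenesis of lysosome-related organelles, had signals of 3.61 and 3.76 in control, 4.79 and 4.89 in IRF8-labelled and 4.01 and 4.11 in KLF4-labelled cells. The groups were separate, with KLF4-labelled cells nearer to control. The changes were 1.15 (SE 0.0998; adjusted p = 0.000489) and 0.38 (adjusted p = 0.0589, and 0.011 with the experiment as a block). The direct difference was 0.78 (adjusted p = 0.00283).

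Rab3a, known from synaptic vesicles, had signals of 0.84 and 1.15 in control, -0.13 and 0.11 in IRF8-labelled and 0.57 and 0.92 in KLF4-labelled cells. IRF8-labelled arrays were lowest, and KLF4-labelled arrays overlapped control. The changes were -1.01 (SE 0.182; adjusted p = 0.00621) and -0.25 (adjusted p = 0.356, and 0.0283 with the experiment as a block). The direct difference of -0.75 (adjusted p = 0.0216) was lost without IRF8-labelled replicate 1 (-0.64, adjusted p = 0.0968) and KLF4-labelled replicate 2 (-0.58, adjusted p = 0.096). Its relative Rab3d, a Rab of exocrine and mast cell granules, rose by 0.65 (adjusted p = 0.00311) and was also higher on a second probe (0.75). Rab3b was dim, above background on 1 of the 2 control arrays, and its rise of 0.98 (adjusted p = 0.0271) was lost without either control or either IRF8-labelled array (adjusted p up to 0.102). Rab3c and Rab37 did not pass the threshold, with 0.04 and 0.03.

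Of the 4 cilium and less studied Rabs, 1 rose and 2 fell in IRF8-labelled cells, against 25.8% and 35.7% of all genes. Rab23, which restrains Hedgehog signalling at the cilium, had signals of -1.87 and -1.68 in control, -0.89 and -0.58 in IRF8-labelled and -1.71 and -1.42 in KLF4-labelled cells. IRF8-labelled arrays were highest, and KLF4-labelled arrays overlapped control. The changes were 1.04 (SE 0.163; adjusted p = 0.00375) and 0.21 (adjusted p = 0.389, and 0.0451 with the experiment as a block). The direct difference of 0.83 (adjusted p = 0.0112) was lost without KLF4-labelled replicate 1 (0.69, adjusted p = 0.0565). Rab28 fell in both factor groups (-0.77, adjusted p = 0.00125, and -0.51, adjusted p = 0.0203), with the KLF4 call lost in each fit without 1 array. Rab42 fell in IRF8-labelled cells (-0.59, adjusted p = 0.0184), a call lost without control replicate 1 and without IRF8-labelled replicate 2, and Rab40c did not pass the threshold (0.10).

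Rab genes that share a number often changed unequally in IRF8-labelled cells. A difference of 2 changes compares probes only through their shifts between groups, and with 2 arrays against 2 the exact 2-sided permutation test cannot go below p = 0.333. The difference was 1.69 between Rab8b and Rab8a, 1.74 in experiment 1 and 1.65 in experiment 2. Between Rab11a and Rab11b it was 1.54 (1.53 and 1.54), and between Rab2b and Rab2a 1.51 (1.55 and 1.47). In each of these 3 pairs the second gene did not pass the threshold against control. Rab3d and Rab3a passed it in opposite directions, 1.66 apart (1.61 and 1.71), and Rab3b and Rab3a were 1.99 apart (1.78 and 2.20). Rab6b exceeded Rab6a by 1.04, Rab7b exceeded Rab7 by 1.03 and Rab4b exceeded Rab4a by 0.70, all in both experiments. Rab5b and Rab5c exceeded Rab5a by 0.77 and 0.76 and were themselves 0.01 apart, with opposite signs in the 2 experiments (-0.17 and 0.19). Rab1a and Rab1b were 0.20 apart (exact permutation p = 0.667).

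**Figure D4:**
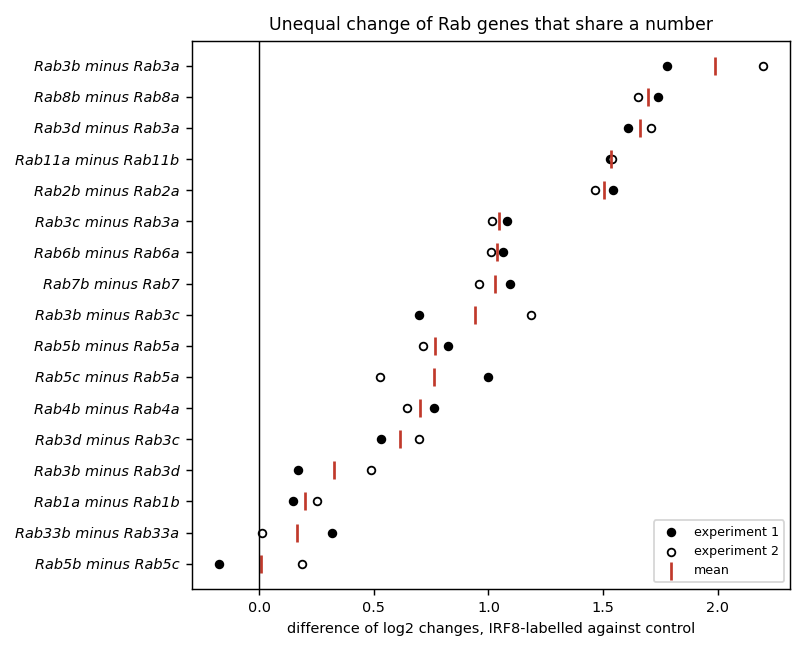
Difference between the log2 changes of 2 Rab genes with the same number (x axis, log2 units, IRF8-labelled against control) for each pair (y axis), with the gene of the larger change named first. Points are the 2 experiments and red bars their mean; both points lie right of 0 for every pair except Rab5b and Rab5c, and the naming of the larger change first places the means there.

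Genes that deliver Rabs to membranes changed by less than 2-fold in all 3 comparisons. Of 8 tested, 3 rose and 3 fell in IRF8-labelled cells, 1 rose and 0 fell in KLF4-labelled cells (by limma; 0 lower also at an unadjusted p under 0.05), and 2 were higher and 2 lower in the direct comparison. Over all genes the shares were 25.8% and 35.7%, 10.4% and 8.85%, and 23.7% and 26.8%. In the blocked fit the KLF4 and direct counts became 1 and 3, and 4 and 3. Without 1 array the IRF8 count of 6 calls was 3 without control replicate 2 or IRF8-labelled replicate 1, the KLF4 count was 0 in each such fit, and the direct count was 0 without IRF8-labelled replicate 1, 2 without IRF8-labelled replicate 2 and 1 without KLF4-labelled replicate 2. The subunits of Rab geranylgeranyl transferase, which attaches the lipid anchor, both fell in IRF8-labelled cells. Rabggta changed by -0.76 (adjusted p = 0.00476) and Rabggtb by -0.61 (adjusted p = 0.00232). Smaller calls were Gdi2, which holds Rabs in the cytosol, at 0.29, Rabac1 at 0.30 and Rabif at -0.45. The Gdi2 and Rabac1 calls were lost in each fit without 1 array, and the Rabif call without control replicate 2 and without IRF8-labelled replicate 1 (adjusted p up to 0.103).

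Of 35 exchange factors tested, 14 rose and 6 fell in IRF8-labelled cells, against 25.8% and 35.7% of all genes, and 5 rose and 2 fell in KLF4-labelled cells, against 10.4% and 8.85%. In the direct comparison 12 were higher and 4 lower, against 23.7% and 26.8%. With the experiment as a block the KLF4 count became 11 and 9 and the direct count 20 and 6. Without 1 array the KLF4 count was 3 for either KLF4-labelled array or control replicate 1 and 4 for control replicate 2. Rin2, an exchange factor for Rab5, had signals of -5.34 and -4.87 in control, 0.75 and 1.02 in IRF8-labelled and -0.93 and -0.87 in KLF4-labelled cells. Control arrays were at the edge of background (1 of 2 above it), and both factor groups stood far above them. Its changes were 5.99 (SE 0.191; adjusted p = 2.95e-05) and 4.20 (SE 0.191; adjusted p = 0.000241).

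Dennd1c, a DENN-domain exchange factor for Rab35, had signals of -3.67 and -3.65 in control, 1.26 and 1.31 in IRF8-labelled and -1.12 and -1.04 in KLF4-labelled cells. The groups were far apart relative to their spread, with changes of 4.95 (SE 0.0823; adjusted p = 7.42e-06) and 2.58 (SE 0.0823; adjusted p = 8.64e-05). Its target Rab35 was not past the threshold in either group. Dennd2a, an exchange factor for Rab9, rose by 3.41 and 2.32, while Rab9 itself was lower in both groups. Rab3il1, an exchange factor for Rab8, rose 8.02-fold in IRF8-labelled cells (adjusted p = 5.25e-05) and by 0.49 on the log2 scale in KLF4-labelled cells (adjusted p = 0.0487), the latter lost in each fit without 1 array. Rin1, a relative of Rin2, fell by 1.47 in IRF8-labelled cells (adjusted p = 0.000914). Dennd3, an exchange factor for Rab12, fell by 1.22 in IRF8-labelled cells (adjusted p = 0.000222). In KLF4-labelled cells Dennd3 was 0.44 (adjusted p = 0.0246), a call lost in each fit without 1 array, and the direct difference was -1.66 (adjusted p = 0.000215).

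Of 33 GTPase-activating proteins tested, 13 rose and 4 fell in IRF8-labelled cells, 3 rose and 1 fell in KLF4-labelled cells, and 8 were higher and 3 lower in the direct comparison. Those shares were 39.4% and 12.1%, 9.09% and 3.03%, and 24.2% and 9.09%, against 25.8% and 35.7%, 10.4% and 8.85%, and 23.7% and 26.8% of all genes. The blocked fit gave 14 and 12, 8 and 5, and 10 and 8. The KLF4 count was 2 without either control or either IRF8-labelled array, and the direct count was 7 without KLF4-labelled replicate 1. Tbc1d9, a TBC-domain protein, had signals of -6.35 and -7.32 in control, -0.32 and -0.10 in IRF8-labelled and -6.95 and -7.20 in KLF4-labelled cells. It was above background on the IRF8-labelled arrays alone, at least 24.3-fold above control (adjusted p = 0.000104) and at least 31.2-fold above KLF4-labelled cells (adjusted p = 0.000212). Tbc1d9 entered the tests through those arrays alone, and each adjusted p belongs to its fitted change and not to the bound. Grtp1, another TBC-domain protein, was highest in KLF4-labelled cells, with changes of 3.10 (adjusted p = 0.000204) there and 1.98 (adjusted p = 0.000228) in IRF8-labelled cells. Its direct difference was -1.12 (adjusted p = 0.00228). Tbc1d2, which acts on Rab7, rose in both (1.08 and 0.94). Rabgap1l was not above background in control and was at least 4.68-fold higher in IRF8-labelled cells (adjusted p = 0.0032). Tbc1d10c and Tbc1d8 fell by 1.88 and 1.81 in IRF8-labelled cells.

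Of 59 effectors tested, 28 rose and 9 fell in IRF8-labelled cells, 7 rose and 3 fell in KLF4-labelled cells, and 26 were higher and 7 lower in the direct comparison. Those shares were 47.5% and 15.3%, 11.9% and 5.08%, and 44.1% and 11.9%, against the same shares of all genes as for the GTPase-activating proteins. With the experiment as a block the KLF4 count became 17 and 13. The KLF4 count was 6 without control replicate 1, 4 without KLF4-labelled replicate 1 and 3 without KLF4-labelled replicate 2, and the direct count was 21 without IRF8-labelled replicate 2 and 20 without KLF4-labelled replicate 1. The Rab27 effectors Sytl1 and Mlph moved in opposite directions. Sytl1, a synaptotagmin-like effector of Rab27, had signals of 1.10 and 1.31 in control, -1.18 and -1.10 in IRF8-labelled and 0.28 and 0.31 in KLF4-labelled cells. The groups were separate, with IRF8-labelled cells lowest, at -2.34 (SE 0.106; adjusted p = 7.73e-05), and the KLF4 change of -0.91 (adjusted p = 0.00599) was lost without KLF4-labelled replicate 1 (adjusted p = 0.0524). Mlph, which links Rab27a to myosin Va on melanosomes, was not above background on any control array. It was at least 2.07-fold higher in IRF8-labelled cells (adjusted p = 0.00242) and at least 1.59 log2 units higher in KLF4-labelled cells (adjusted p = 0.00641). The KLF4 call was lost without KLF4-labelled replicate 2. These bounds are in unlike units. The fitted log2 changes were 3.25 in IRF8-labelled and 3.79 in KLF4-labelled cells, so the larger was that of KLF4-labelled cells.

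Rab11fip5, an effector of Rab11, rose by 2.58 in IRF8-labelled cells (SE 0.224; adjusted p = 0.0005) and by 1.57 in KLF4-labelled cells (adjusted p = 0.0117), the latter lost without KLF4-labelled replicate 2 (adjusted p = 0.07). Rab11a rose in both groups too, in the same order of size. Plekhm1, which joins Rab7 to the lysosome fusion machinery, rose by 1.39 in IRF8-labelled cells (adjusted p = 0.000511). Plekhm2, a kinesin adaptor of lysosomes, rose by 1.51 there (adjusted p = 0.000156), and neither passed the threshold in KLF4-labelled cells (0.28 and 0.28) except with the experiment as a block (adjusted p = 0.0165 and 0.0241). Ehd1, an ATPase of the recycling endosome, rose in both groups, by 1.46 and 1.45, with a direct difference of 0.01 and a 95% interval of -0.24 to 0.27. Its relative Ehd4 rose in IRF8-labelled cells (1.08, adjusted p = 0.00117) and was -0.23 in KLF4-labelled cells (adjusted p = 0.228, and 0.0379 with the experiment as a block). Rilpl1, a relative of the Rab7 effector Rilp, was not above background in control and was at least 2.18-fold and at least 2.04-fold higher in the 2 factor groups.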

How the data were processed

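Cy3-labelled total RNA from Tot2 cells was read on 1-colour Agilent arrays, 6 in all and 2 for each of the 3 groups, with groups taken from the labels. Per the file headers, the scanner values used here are spot intensity from Agilent Feature Extraction 10.7.3.1, background-subtracted within each array by that program and not scaled between arrays. Of 62976 spots an array, 59305 are not controls and give 55681 probes; 75 probes with marked spots were left out. RefSeq accessions named 26762 probes and 20284 genes. From the scanner values, log2 of the processed signal was taken per probe, minus the log2 75th percentile over non-control spots of the array. The brightest probe stood for a gene. Genes well above background throughout at least 1 group were tested in 1 fit over all 6 arrays (3 residual degrees of freedom) with limma 3.58.1 in R 4.3.3, Benjamini-Hochberg adjustment over 13247 genes and a threshold of 0.05. Intervals are 95%, and arrays give no counts, so the number of arrays limits the precision. A fold for a probe below background in a group is a lower bound against the lowest signal well above background on each array. The adjusted p beside such a bound is that of the fitted change, with signals below background included. The fit was also run on simulated data with few changed genes and no shared effect of the experiment. These data differ in both respects, so no conclusion is drawn from that run. The authors' deposited table holds the processed intensity times 1 factor an array (0.642 to 1.39, within 1% for all but 120 to 163 probes).

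The replicate number marks the experiment, and each experiment's arrays share a slide. Deviations from group means of same-numbered arrays correlated over all tested genes at r = 0.282 (control and IRF8-labelled), 0.321 (control and KLF4-labelled) and 0.391 (IRF8-labelled and KLF4-labelled). Over the Rab genes these correlations were higher, at 0.465, 0.626 and 0.395 in the same order. The main fit leaves this shared part out, and the fit with the experiment as a block was an alternative. Arrays numbered 1 were also dimmer than those numbered 2, with a 75th percentile intensity of 436 to 551 against 852 to 974. The part of that difference in the correlations was not tested. The other alternatives were quantile, median and spike-in scaling (8 spike-in probes), normexp on the median signal (offset 50), the deposited table, other filters and probe rules. Limma with trend, only the groups compared, and leaving out each array were alternatives too. Scaling to the percentile over probes was added after seeing the data. The files given held no mean signal column, so normexp used the median. No per-sample columns (0) were left unused for want of a label.

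Values on every array are given for Rab genes past the threshold with at least a 2-fold change or bound in a comparison whose groups did not overlap, and for Rab1a, Rab5a, Rab7, Rab11a and Rab27a. Of each list of partners, up to 4 genes a comparison with the largest change past the threshold are named. The members and the lists were chosen with earlier results of these data known. Rab20 was added after its values were seen. Some genes counted in the lists are not reported here by name.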

Additional observations from a re-analysis of the deposited data

How the results depend on the processing

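Counts follow as IRF8-labelled against control, KLF4-labelled against control and the direct comparison. The counts reported were 33, 9 and 27 for Rab genes, 6, 1 and 4 for delivery genes, 20, 7 and 16 for exchange factors, 17, 4 and 11 for GTPase-activating proteins and 37, 10 and 33 for effectors. With spike-in scaling they were 16, 2 and 7 for Rab genes, 0, 0 and 0 for delivery genes, 10, 3 and 7 for exchange factors, 7, 2 and 4 for GTPase-activating proteins and 15, 4 and 5 for effectors. That scaling moved the median change of all genes from -0.13 to -0.26 in the first comparison and from -0.01 to -0.17 in the direct one. With the experiment as a replicate block the Rab KLF4 count was 19; delivery gave 4 (KLF4) and 7 (direct), exchange factors 20 and 26, effectors 30 (KLF4), and GTPase-activating proteins 26, 13 and 18. With median scaling the Rab direct count was 17; delivery gave 0 (KLF4) and 2 (direct), and exchange factors and effectors 3 and 6 (KLF4). With normexp the Rab counts were 3 (KLF4) and 17 (direct); KLF4 counts were 0, 3, 2 and 5 for the 4 partner lists, and effectors gave 21 in the direct comparison. Without the filter on dim probes the Rab counts were 2 (KLF4) and 15 (direct); delivery gave 3, 0 and 2, and the other partner lists 3, 2 and 5 (KLF4). Fitting only the groups compared gave KLF4 counts of 5 (Rab), 0 (delivery) and 2 (GTPase-activating proteins), and the authors' deposited values gave 2 for the last. Leaving out 1 array gave Rab counts of 25 to 32, 2 to 6 and 16 to 26. The ranges were 3 to 4, 0 to 0 and 0 to 4 for delivery genes and 16 to 19, 3 to 5 and 12 to 16 for exchange factors. They were 14 to 15, 2 to 3 and 7 to 11 for GTPase-activating proteins and 30 to 37, 3 to 7 and 20 to 29 for effectors. The cause of these shifts was not tested, apart from fewer arrays or other genes tested where the setting makes that so. Over the named Rab genes and all settings, 884 outcomes kept direction and side of the threshold, 56 lost the call, 14 gained it, and 21 uncalled values changed sign. Signal over background limits Rab39, Rab25, Rab19 and Rab3b, which were at or near background in at least 1 group.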
